A study of Mus musculus with 21 samples.

Results

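The genes examined here are 31 cardiac ion channel subunit and connexin genes: 19 potassium channel genes, 2 sodium channel genes, 2 pacemaker channel genes, 5 calcium channel genes and 3 connexin genes. They were taken by symbol from the 19096 genes of the deposited gene table. All 31 passed the filter on low counts and were among the 15208 genes tested. Heart RNA was sequenced in 21 libraries from male C57BL/6NJ mice kept for 10 weeks on chow or on a diet with 60% of energy from fat. Their age is listed as 8 to 10 weeks, which beside 10 weeks of diet was not taken as the age at collection. Which chambers were taken is not given in the sources used here. Each mouse also received an adeno-associated virus carrying renin or served as a vector control, and hearts were collected 6 weeks after the injection into the retro-orbital sinus. Renin is the enzyme that starts the angiotensin cascade, and the study pairs it with the fatty diet to model heart failure in which the ejection fraction stays preserved. Chow control had 4 hearts, chow renin 6, high-fat control 6 and high-fat renin 5. The design text gives the control mice a null vector, whereas the sample labels give them no virus. The promoter, the serotype and the species of the renin sequence are not given in the sources used here. Reads of mouse Ren1 were found in 4 of 21 heart libraries, with at most 5 reads, so the heart data hold no check of the vector.

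The heartbeat is shaped by currents that follow each other in a fixed order. Sodium current starts the upstroke, calcium current holds the plateau, and several potassium currents end it. In the mouse ventricle the transient outward current, carried by Kv4 channels with the accessory protein KChIP2, dominates early repolarisation, and other potassium channels set the resting potential or open when ATP falls or when acetylcholine is released. Connexins form the gap junctions that pass the impulse from cell to cell, and HCN channels carry the pacemaker current.

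Library totals ran from 18.7 M to 29.3 M estimated reads, and the 4 chow control libraries were the shallowest. Ventricular cardiomyocyte markers had a mean level of 10.43 to 10.88 log2 CPM (reads scaled to a common library size with TMM factors) in all 21 libraries, and this level moved with group, as given beside the channel genes. In 5 libraries, namely replicate 3 of each group and chow renin replicate 1, atrial markers were also high: 6 of 8, among them Myl7 and Sln, lay above every other library, and the summed level of all 8 was 398.0 to 840.2 CPM against 68.04 to 107.6 CPM. These 5 atrial-rich libraries are 1 of 4 chow control, 2 of 6 chow renin, 1 of 6 high-fat control and 1 of 5 high-fat renin. Chow renin hearts held more transcripts of central nervous tissue than any other group: 9 of 10 neuron markers and 7 of 8 oligodendrocyte and astrocyte markers lay above all 15 libraries of the other groups, with summed levels of 295.1 to 457.5 CPM against 112.2 to 187.3 CPM for neurons and 162.2 to 279.6 CPM against 40.29 to 78.27 CPM for glia. A clock score (the mean log2 CPM of Arntl, Clock, Npas2 and Nfil3 minus that of 8 genes of the opposite phase, such as Dbp and Nr1d1) also moved with group. It was -3.75 ± 0.14 (SD, n = 4) in chow control and -3.49 ± 0.11 (SD, n = 6) in high-fat control. The renin groups were higher, at -3.14 ± 0.11 (SD, n = 6) on chow and -2.93 ± 0.46 (SD, n = 5) on the fatty diet. The time of day of collection is not given in the sources used here. In whole tissue, fewer cells of a type and less RNA per cell cannot be told apart.

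Compared per transcript length, the members spanned a wide range. Median TPM (the transcript share corrected for length) over the 21 hearts was highest for Gja1 at 87.6, which encodes the ventricular connexin 43. The next were Kcnip2 (53.8), which encodes KChIP2, Kcnk3 (52.0), a background leak channel, and Kcnj11 (44.6), the pore of the ATP-sensitive channel. Over all hearts Kcnip2 ran from 27.9 to 73.5 TPM and Kcnk3 from 45.2 to 62.1 TPM, and their order differed by group. Kcnip2 was above Kcnk3 in 4 of 4 chow control hearts, 4 of 6 chow renin, 2 of 6 high-fat control and 1 of 5 high-fat renin hearts, a description with no test. The lowest were Kcne1 (0.998 TPM), Cacna1d (0.295 TPM) and Kcna4 (0.222 TPM).

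Against chow control, high-fat renin hearts had lower transcript levels of 5 of the 31 members, all potassium channel subunits: Kcnip2, Kcnd2, Kcnh2, Kcnq1 and Abcc8. No member was called higher. Called means an adjusted p under 0.05 in edgeR's quasi-likelihood test (Benjamini-Hochberg over 15208 genes). The 5 calls are 16.1% of the members. Of all tested genes, 8.3% were called in either direction, 4.05% higher and 4.25% lower. The median log2 fold change was -0.26 over the members and 0.01 over all genes tested, and 24 of 31 members lay below 0, against 47.4% of all genes. The ventricular cardiomyocyte marker score was lower in the same hearts. It was 10.81 ± 0.10 (10.65 to 10.88, SD, n = 4) in chow control and 10.51 ± 0.07 (10.43 to 10.60, SD, n = 5) in high-fat renin, without overlap. Of the 6 markers, 4 (Myh6, Myl2, Myl3 and Tnni3) lay lower in all 5 high-fat renin hearts than in any chow control heart, while Irx4 and Ryr2 overlapped. Ryr2 was not lower, at 863.3 to 1065 CPM in chow control and 949.4 to 1102 CPM in high-fat renin. The summed level of the 6 was 38960 to 46610 CPM against 29600 to 35210 CPM. Most of this sum is Myh6, at 29180 to 35150 CPM against 20950 to 26300 CPM. None of the 6 markers was at 0, and their part in the lower channel transcripts was not tested.

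In chow renin against chow control, 1 of 31 members was called, Kcnq1, which was lower. The background there was 13.5% called, 10.1% higher and 3.35% lower. The member median was -0.22 and 27 of 31 were below 0, whereas over all genes the median was -0.03 with 55.6% below 0. The ventricular marker score, 10.56 to 10.69 in chow renin, overlapped chow control, while the summed level, 36760 to 38500 CPM, lay below the chow control sums of 38960 to 46610 CPM, with 1 of 6 markers (Myh6) separating the groups. For high-fat control against chow control the count was 0 of 31 in edgeR, DESeq2 and limma, with 7 members at an unadjusted p under 0.05 in edgeR and 8 in each of the others. The background of that comparison was 0.0658%, with 0.0132% higher and 0.0526% lower. High-fat renin against high-fat control gave 4 members, all lower (Kcnd2, Kcnh2, Kcnj3 and Kcnj8), beside a background of 11.2% called, 6.07% higher and 5.08% lower. The ventricular score of high-fat control was 10.61 to 10.84, above all high-fat renin hearts, with 1 of 6 markers (Tnni3) separating the groups. In high-fat renin against chow renin 2 members were lower, Kcnd2 and Kcnip2, beside 22.6% called among all genes, 9.81% higher and 12.8% lower. The summed ventricular markers were at 36760 to 38500 CPM in chow renin against 29600 to 35210 CPM in high-fat renin, without overlap, and 1 of 6 (Myh6) separated the groups, while the scores (10.56 to 10.69 and 10.43 to 10.60) overlapped. The interaction, which asks whether the renin difference depends on diet, called 0 of 31 by edgeR, DESeq2 and limma, with 2, 2 and 1 members at an unadjusted p under 0.05, beside a background of 10.4%, 3.14% above 0 and 7.31% below. Several of these comparisons share a group, so their values are not independent. In all, 7 members were called at least once and 24 were not.

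**Figure D1:**
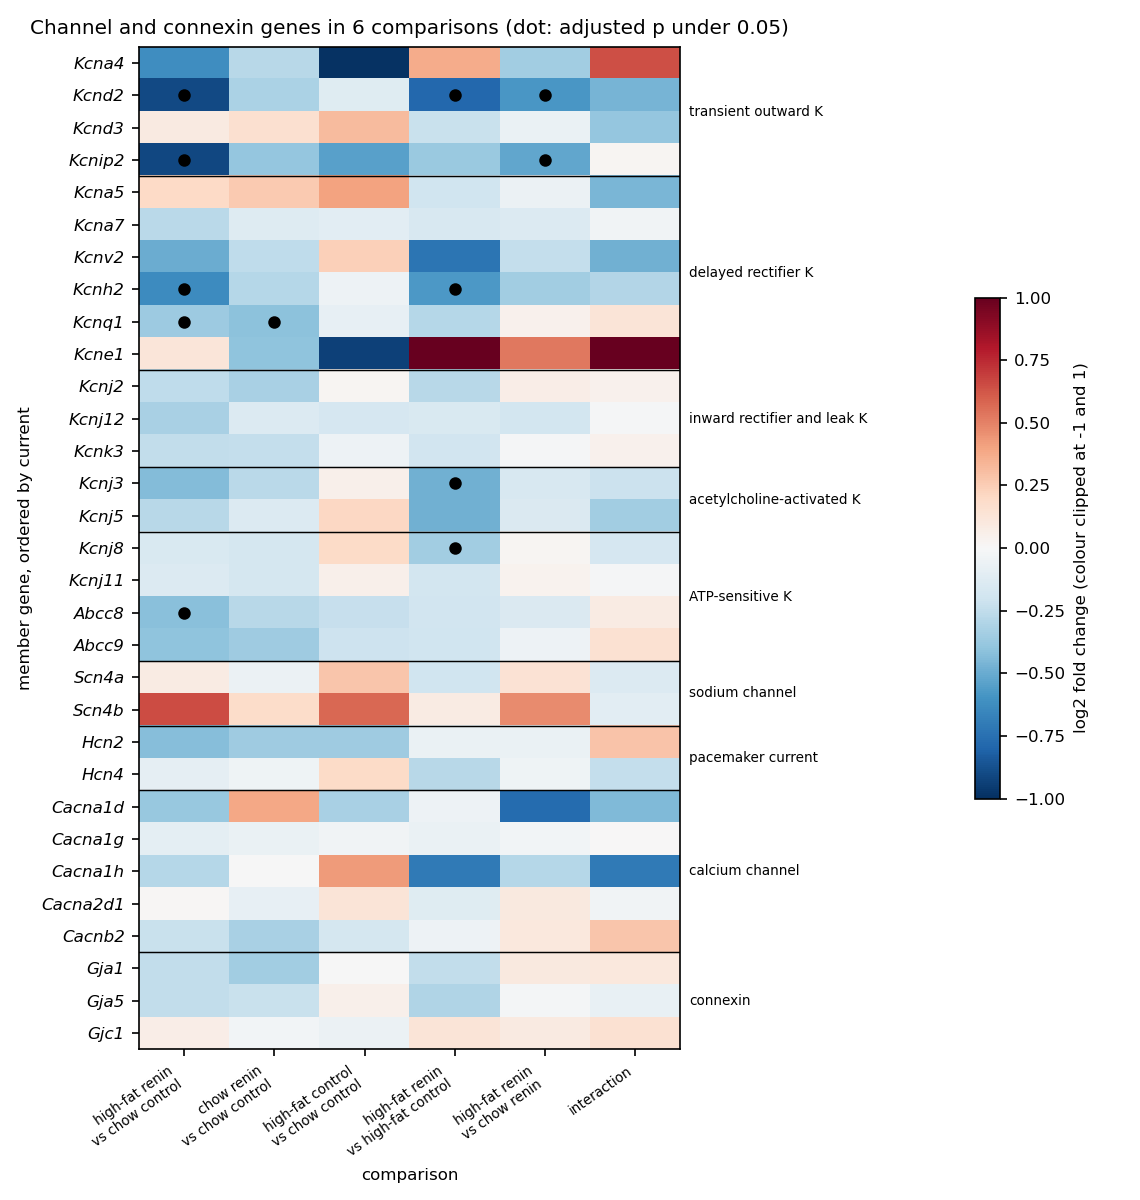
Log2 fold change of the 31 members (rows, ordered by current) in the 6 comparisons (columns), with colour clipped at -1 and 1. Black dots mark calls at an adjusted p under 0.05. The dots number 12 in all, each on a negative value, and none stands in the columns for high-fat control against chow control or the interaction.

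The transient outward current held the largest called differences. Kcnip2 (ENSMUSG00000025221, GRCm38 chromosome 19, 45791839 to 45816061, minus strand) encodes KChIP2, which brings Kv4 channels to the membrane. It was measured at 159.4, 182.1, 160.2 and 189.1 CPM in chow control and at 67.09, 117.2, 102.0, 81.58 and 92.22 CPM in high-fat renin. Chow renin ran from 116.2 through a median of 132.4 to 145.0 CPM, and high-fat control from 73.32 through 120.4 to 158.6 CPM. All 17 hearts of the other groups lay below all 4 chow controls. The share of all tested genes that separate groups in this way was not counted, here or for the members below. High-fat renin differed from chow control by -0.91 ± 0.19 (log2 fold change ± SE, adjusted p = 0.00583, edgeR) and from chow renin by -0.52 ± 0.17 (adjusted p = 0.0325). Its differences from chow control of -0.39 ± 0.18 in chow renin (adjusted p = 0.183) and -0.54 ± 0.18 in high-fat control (adjusted p = 0.270) were not called. Group means were 172.7 ± 15.2 CPM (SD, n = 4) in chow control and 92.0 ± 19.1 CPM (SD, n = 5) in high-fat renin, with chow renin at 132.2 ± 11.7 CPM (SD, n = 6) and high-fat control at 118.7 ± 35.1 CPM (SD, n = 6) between them. The call against chow renin ended without any of chow renin replicates 2, 4 and 5 or high-fat renin replicates 1, 4 and 5 (adjusted p up to 0.0936), and with the central nervous score in the fit (-0.21, adjusted p = 0.9996). For this gene the interaction was 0.02 ± 0.25, with a 95% interval from -0.50 to 0.54.

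Kcnip2 is read from several transcripts. The most abundant, Kcnip2-209, stood at 38.2 ± 2.6 TPM in chow control (SD, n = 4) and 19.2 ± 3.0 TPM in high-fat renin (SD, n = 5). Its share of the gene's TPM was 55.6 ± 3.2% and 51.5 ± 4.9%. The second, Kcnip2-202, was at 13.5 ± 3.3 and 8.37 ± 2.63 TPM. These transcript values are descriptions with no test.

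Kcnd2 (ENSMUSG00000060882, chromosome 6, 21215503 to 21729805, plus strand) encodes Kv4.2, a pore subunit of the same current. Chow control hearts had 20.27, 14.11, 10.75 and 15.37 CPM, and high-fat renin hearts 5.69, 6.416, 9.189, 11.65 and 7.395 CPM. High-fat renin replicate 4 was the 1 of 5 that reached the chow control range, where it exceeded the atrial-rich replicate 3. Chow renin spanned 9.574 to 14.34 CPM with a median of 12.5, and high-fat control 11.13 to 18.45 CPM with a median of 13.5. Kcnd2 was the member called against all 3 other groups: by -0.90 ± 0.20 against chow control (adjusted p = 0.00938), -0.79 ± 0.19 against high-fat control (adjusted p = 0.0103) and -0.58 ± 0.19 against chow renin (adjusted p = 0.0267). Without the 5 atrial-rich libraries the first of these was -1.10 (adjusted p = 0.00364). The call against chow renin ended on leaving out replicate 3 or 4 of chow renin, or 1, 2 or 5 of high-fat renin (adjusted p up to 0.0770), and with the central nervous score in the fit (-0.20, adjusted p = 0.9996).

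Kcnd3, which encodes the companion pore Kv4.3, was not called in any comparison. Its level was 9.70 ± 1.47 CPM in chow control, 12.1 ± 1.1 in high-fat control, 10.9 ± 1.4 in chow renin and 10.4 ± 0.9 in high-fat renin. The difference of high-fat renin from chow control was 0.09 ± 0.11, with a 95% interval from -0.14 to 0.32 (adjusted p = 0.659). Set against each other per length, the ratio of Kcnd2 to Kcnd3 TPM was 1.89 to 2.38 in chow control, 1.33 to 2.15 in high-fat control, 1.17 to 1.89 in chow renin and 0.794 to 1.45 in high-fat renin, a description with no test. Kcna4 (Kv1.4), the slow component, was low throughout: 1.54 to 2.09 CPM in chow control, 0.263 to 1.53 in high-fat control, 0.989 to 2.36 in chow renin and 1.08 to 1.26 in high-fat renin. Its difference in high-fat control, -0.99 ± 0.30, was the largest of that comparison among the members and was not called (adjusted p = 0.210).

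**Figure D2:**
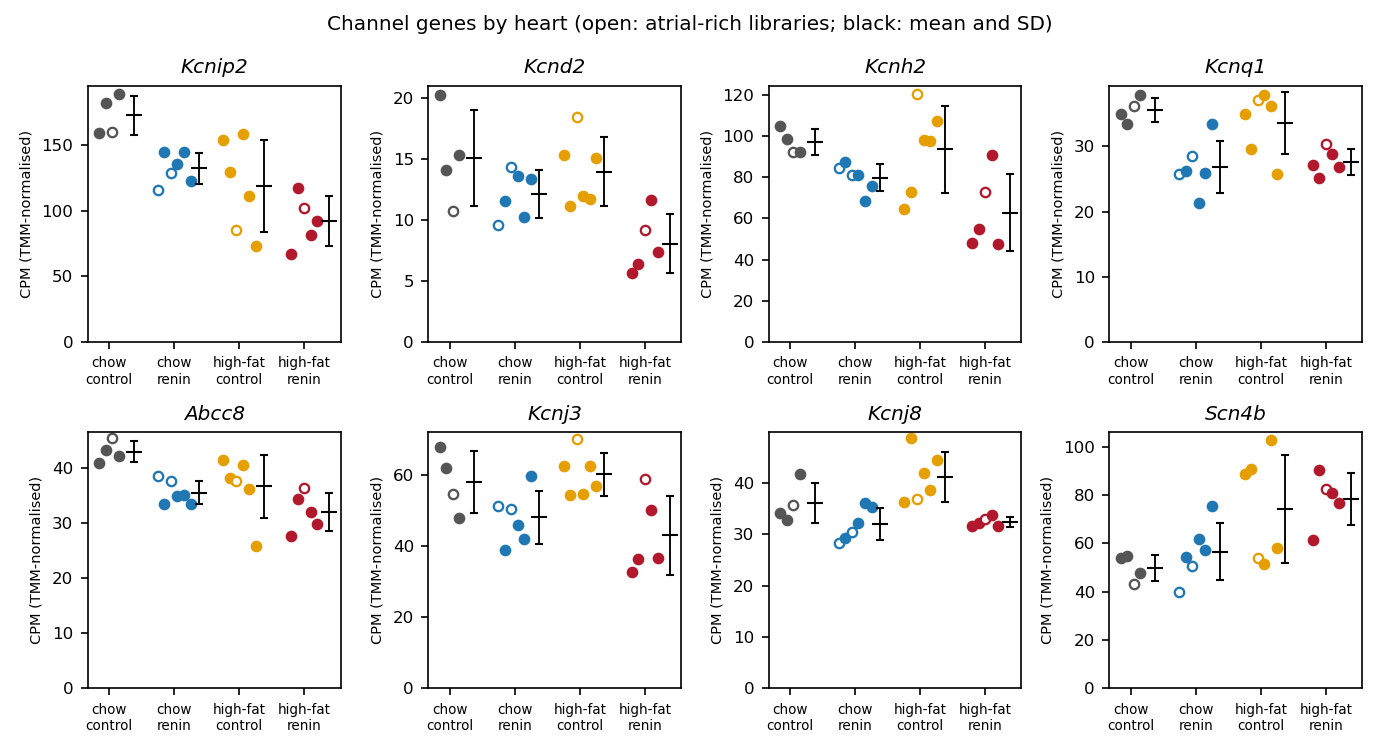
Level in CPM (vertical axes, each from 0) of the 7 members called at least once, and of Scn4b, in each heart of the 4 groups. Open circles are atrial-rich libraries, and black marks give group mean and SD. All 5 high-fat renin hearts lie below all 4 chow control hearts for Kcnip2, Kcnh2, Kcnq1 and Abcc8, and above them for Scn4b. The uncalled members Kcna4, Kcnj12 and Kcnk3, not drawn, lie below them likewise. The share of all tested genes that separate these groups was not counted.

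Upstream sequence is shown for Kcnip2, Kcnd2 and Kcnj8, which were called lower in high-fat renin and whose RefSeq start lies near the start of their main annotated transcript. They are also the called members with a matched promoter that hold the motif marked below. Kcnh2 and Kcnj3, called and matched without the motif, are not shown. Each is the 250 bases before the RefSeq transcription start (GRCm38.p6), 5′ to 3′ on the gene's own strand. Capitals mark CCCCACCC, a CACCC-type motif of the sort bound by KLF factors, or its reverse complement GGGTGGGG.
Kcnip2, chr19:45816064-45816313, minus strand: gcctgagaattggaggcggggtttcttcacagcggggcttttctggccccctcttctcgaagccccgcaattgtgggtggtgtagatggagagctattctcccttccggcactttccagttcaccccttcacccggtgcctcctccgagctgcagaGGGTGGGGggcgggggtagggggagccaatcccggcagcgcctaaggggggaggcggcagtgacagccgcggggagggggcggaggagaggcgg
Kcnd2, chr6:21215096-21215345, plus strand: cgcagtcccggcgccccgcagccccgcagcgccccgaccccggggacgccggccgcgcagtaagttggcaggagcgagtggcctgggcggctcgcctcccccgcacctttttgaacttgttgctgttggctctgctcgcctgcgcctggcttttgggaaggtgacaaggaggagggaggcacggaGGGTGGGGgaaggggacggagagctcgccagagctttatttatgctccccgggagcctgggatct
Kcnj8, chr6:142571615-142571864, minus strand: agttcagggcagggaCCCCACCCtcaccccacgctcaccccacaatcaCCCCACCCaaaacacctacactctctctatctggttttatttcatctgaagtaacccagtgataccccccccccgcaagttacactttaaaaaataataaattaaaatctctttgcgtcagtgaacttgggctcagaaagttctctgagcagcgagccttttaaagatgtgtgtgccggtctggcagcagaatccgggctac
Kcnip2 and Kcnd2 each hold 1 copy and Kcnj8 holds 2. RefSeq promoters were matched for 22 of 31 members. The motif, on either strand, occurred in 10 of those 22 and in 9.05% of 32851 mouse promoters of the same length. Median GC content was 64.0% in the members' promoters and 52.4% in all. It was held by 3 of the 5 matched members that were called (the 3 shown, not Kcnh2 or Kcnj3) and by 7 of the 17 that were not (Abcc9, Gja5, Kcna4, Kcna7, Kcnd3, Kcnj5 and Scn4a). No promoter sequence was matched for Abcc8 or Kcnq1. Of the other letters searched on both strands, CACGTG (E-box) occurred in 1 member (Kcnj2) and 6.02% of all promoters, AGATAA in 1 (Gja1) and 9.99%, ACANNTGT (IRX) in 1 (Kcna7) and 6.31%, and TATAAA in 1 (Cacna1d) and 12.4%. TTATGTAA (D-box) was in 0 of the 22 windows and in 0.819% of all promoters, and a MEF2 motif in 0 and 0.103%. These matches are letters in a window and carry no measurement of binding. Klf15, a KLF factor known to drive Kcnip2 in mouse heart, stood at 45.8 ± 6.5 CPM in chow control and 34.6 ± 6.2 CPM in high-fat renin, a difference of -0.40 ± 0.16 that was not called (adjusted p = 0.122).

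Among the delayed rectifiers, which end the plateau, 2 of 6 members were lower in high-fat renin than in chow control. Kcnh2 (ENSMUSG00000038319, chromosome 5, 24319589 to 24351604, minus strand) encodes ERG1, the pore of the rapid component. It was at 105.2, 98.66, 92.36 and 92.41 CPM in chow control and 47.96, 54.81, 72.83, 90.97 and 47.79 CPM in high-fat renin. Replicates 1, 2 and 5 of high-fat renin were low and replicate 4 came close to the lowest chow control. Cntn2, a marker of conduction cells, was low in the same hearts, at 3.287, 3.169 and 2.79 CPM in replicates 1, 2 and 5 against 21.14 and 27.42 CPM in replicates 3 and 4. In chow control it was at 47.4 CPM in the atrial-rich heart and at 9.111 to 11.1 CPM in the others. Cntn2 was at 21.14 to 47.4 CPM in the 5 atrial-rich libraries, among them high-fat renin replicate 3. Tbx3 and Vsnl1 were likewise lower in replicates 1, 2 and 5 than in 3 and 4, while Smoc2, Tbx18, Shox2 and Isl1 overlapped. High-fat control replicate 1, with the lowest Kcnh2 of its group, had the lowest Cntn2 of all (1.744 CPM). Of the 7 sinus node and conduction markers, 0 lay lower in high-fat renin than in chow control without overlap and 1 (Smoc2) higher. Their summed level was 93.23 to 125.2 CPM against 77.83 to 140.1 CPM in chow control and 82.58 to 129.3 CPM in high-fat control, and Isl1 was at or near 0. Their part in the Kcnh2 differences was not tested. High-fat control spread from 64.82 through a median of 97.9 to 120.6 CPM, and chow renin from 68.69 through 81.1 to 87.38 CPM. The difference was -0.63 ± 0.18 against chow control (adjusted p = 0.0338) and -0.57 ± 0.16 against high-fat control (adjusted p = 0.0285). The call against chow control was lost on leaving out any of chow control replicates 1, 2 and 4 or high-fat renin replicates 1, 2 and 5 (adjusted p up to 0.0885). The call against high-fat control was lost without any of high-fat control replicates 3, 5 and 6, or of replicates 1, 2 and 5 of high-fat renin (up to 0.0954), and without the atrial-rich libraries (0.0755).

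Kcnq1 (ENSMUSG00000009545, chromosome 7, 143106362 to 143427042, plus strand) encodes the pore of the slow component. Chow control hearts had 35.02, 33.44, 36.14 and 37.82 CPM. High-fat renin hearts had 27.1, 25.12, 30.37, 28.85 and 26.79 CPM, and chow renin ran from 21.32 through 26.1 to 33.36 CPM. Both renin groups lay wholly below chow control, while high-fat control (25.83, median 35.6, 37.82 CPM) overlapped it. Kcnq1 was lower by -0.41 ± 0.10 in chow renin (adjusted p = 0.00790) and by -0.36 ± 0.11 in high-fat renin (adjusted p = 0.0365). Without the atrial-rich libraries neither passed (adjusted p = 0.0760 and 0.0674, log2 fold change -0.39 and -0.41). The high-fat renin call also ended without any 1 of the 4 chow control hearts or of high-fat renin replicates 1, 2 and 5 (up to 0.118). With the central nervous score in the fit, the chow renin difference was -0.47 and not called (adjusted p = 0.723), and 0.21% of all genes were. Kcnq1 shares 121 exon bases, 2.96% of its exons, with the antisense transcript Kcnq1ot1, and strand use in counting is not given in the sources used here.

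The other 4 delayed rectifier members were not called. Kcna5 (Kv1.5), which carries the ultrarapid component, was at 19.5 ± 4.0, 23.4 ± 5.9, 25.8 ± 8.7 and 22.5 ± 2.4 CPM in chow control, chow renin, high-fat control and high-fat renin. Kcna7 (Kv1.7) had group means between 5.38 and 6.48 CPM. Kcnv2, a silent subunit that modifies other Kv channels, was at 3.962, 3.44, 7.287, 8.476 and 4.046 CPM in high-fat renin and at 7.678 to 10.52 CPM in high-fat control, with a difference of -0.73 ± 0.25 (adjusted p = 0.0635).

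Kcne1, the accessory subunit that slows the Kcnq1 channel, was called in no comparison, but in some without the atrial-rich libraries or with the atrial score in the fit. Chow control hearts had 1.195, 1.444, 2.648 and 1.164 CPM and high-fat renin hearts 2.739, 0.850, 1.974, 2.267 and 0.942 CPM. Chow renin ran from 0.559 to 2.20 CPM and high-fat control from 0.349 to 2.06 CPM. High-fat renin was highest in replicate 1, which is not atrial-rich. The highest heart of chow control and of high-fat control was the atrial-rich replicate 3, and the highest of chow renin the atrial-rich replicate 1. Over all hearts the interaction was 1.46 ± 0.65 (adjusted p = 0.179). Without the 5 atrial-rich libraries it was 2.25 (adjusted p = 0.0126), and with the atrial score in the fit 1.77 (adjusted p = 0.0105). High-fat renin then exceeded high-fat control by 1.51 (adjusted p = 0.0126) without those libraries, against 1.06 ± 0.45 (adjusted p = 0.135) with them. The gene was covered by only 8 to 65 reads a library.

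The ATP-sensitive channels open when ATP falls. They join a pore (Kcnj8, Kir6.1, or Kcnj11, Kir6.2) to a sulphonylurea receptor (Abcc8, SUR1, or Abcc9, SUR2), and the genes lie in pairs, with 16247 bases between Kcnj8 and Abcc9 on chromosome 6 and 3758 between Kcnj11 and Abcc8 on chromosome 7. Abcc8 (ENSMUSG00000040136, chromosome 7, 46104523 to 46180033, minus strand) was at 41.04, 43.28, 45.53 and 42.18 CPM in chow control and 27.65, 34.4, 36.43, 32.12 and 29.89 CPM in high-fat renin, with no overlap. It was lower by -0.42 ± 0.10 (adjusted p = 0.0117). Chow renin, at 33.46 to 38.53 CPM, also lay below chow control without a call (-0.27 ± 0.10, adjusted p = 0.0618). In all 21 fits that each left out 1 heart, Abcc8 kept its call against chow control, as did Kcnip2 and Kcnd2.

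Kcnj8 (ENSMUSG00000030247, chromosome 6, 142564837 to 142571614, minus strand), which in the heart is best known from vascular cells, was lower in high-fat renin than in high-fat control. High-fat control ran from 36.36 through a median of 40.3 to 48.84 CPM. High-fat renin hearts had 31.69, 32.16, 33.06, 33.83 and 31.6 CPM, all below high-fat control. The difference was -0.34 ± 0.08 (adjusted p = 0.00875), and it was called in all 21 fits without 1 heart. Chow control, at 32.83 to 41.79 CPM, overlapped both. The summed level of 8 pericyte and smooth muscle markers was 729.9 to 804.2 CPM in high-fat renin and 683.9 to 920.8 CPM in high-fat control, with 0 of 8 markers separating these groups; its part in the Kcnj8 difference was not tested. The partners Kcnj11 and Abcc9 were not called in any comparison. Kcnj11 had means of 149.3 ± 6.3, 132.5 ± 9.3, 154.3 ± 20.9 and 135.7 ± 11.7 CPM, and Abcc9 241.8 ± 34.3, 189.0 ± 40.6, 209.8 ± 51.5 and 182.6 ± 22.5 CPM, in chow control, chow renin, high-fat control and high-fat renin.

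The acetylcholine-activated channel, which slows the heart under vagal tone, is formed by Kcnj3 (GIRK1) and Kcnj5 (GIRK4). Kcnj3 (ENSMUSG00000026824, chromosome 2, 55435970 to 55598145, plus strand) was at 32.83, 36.49, 58.94, 50.16 and 36.73 CPM in high-fat renin, and at 54.43 through a median of 59.7 to 70.02 CPM in high-fat control. Only the atrial-rich replicate 3 of high-fat renin reached the high-fat control range. Replicates 1, 2 and 5 were the low hearts, as for Kcnh2, and the part of the conduction markers given there was not tested here either. Kcnj3 was lower by -0.48 ± 0.14 (adjusted p = 0.0285), and by -0.58 (adjusted p = 0.0137) without the atrial-rich libraries. That call was lost without replicate 3 or 5 of high-fat control, or 1, 2 or 5 of high-fat renin (adjusted p up to 0.0959). Its exons share 1621 bases (31.1%) with an antisense gene, Gm26794. Kcnj5 had a similar size of difference, -0.48 ± 0.21, which was not called (adjusted p = 0.153), and it spread from 29.84 to 79.33 CPM within high-fat renin.

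None of the members grouped as inward rectifier and leak channels (Kcnj2, Kcnj12 and Kcnk3) was called. Kcnj2 and Kcnj12 (Kir2.1 and Kir2.2) hold the resting potential, and Kcnk3 (TASK-1) is a background leak. All 3 were below 0 in high-fat renin against chow control: Kcnj2 by -0.26 ± 0.16 (adjusted p = 0.365), Kcnj12 by -0.32 ± 0.12 (adjusted p = 0.0889) and Kcnk3 by -0.24 ± 0.09 (adjusted p = 0.0904). Kcnk3 was at 240.9 to 285.8 CPM in chow control, 208.7 to 306.2 in high-fat control, 208.3 to 238.8 in chow renin and 208.7 to 233.5 in high-fat renin, so that both renin groups lay below chow control.

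Scn4b, which encodes an accessory subunit of the sodium channel, had the largest positive difference of the members in high-fat renin against chow control. Chow control hearts had 53.94, 54.66, 43.04 and 47.71 CPM and high-fat renin hearts 61.19, 90.45, 82.56, 80.89 and 76.7 CPM, without overlap. The difference was 0.65 ± 0.20 with a 95% interval from 0.23 to 1.08, just outside the threshold (adjusted p = 0.0528). High-fat control was at 88.5, 90.68, 53.75, 51.44, 102.7 and 57.97 CPM, with 4 of 6 hearts above all chow controls (0.57 ± 0.20, adjusted p = 0.287). In the authors' deposited table, whose header gives a comparison for the high-fat diet with virus but no reference group, Scn4b has a log2 fold change of 0.39 with an adjusted p of 0.0189. The same deposited table gives Kcnip2 a log2 fold change of -0.72 with an adjusted p of 0.000352. Scn4a, a pore subunit best known from skeletal muscle, was not called, with group means from 36.3 to 45.9 CPM.

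Neither pacemaker channel gene was called. Hcn2 was at 25.0 ± 4.5 CPM in chow control, 19.5 ± 3.2 in high-fat control, 19.5 ± 4.7 in chow renin and 18.6 ± 2.4 in high-fat renin, with a difference of -0.42 ± 0.16 in the last (adjusted p = 0.112). Hcn4, the main isoform of the sinus node, had means of 11.4 to 13.8 CPM.

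The 5 calcium channel genes and 3 connexin genes held no call. Cacna2d1 and Cacnb2 encode accessory subunits of the L-type channel. Cacna2d1 differed by 0.01 ± 0.08 between high-fat renin and chow control (95% interval from -0.15 to 0.17), and Cacnb2 by -0.22 ± 0.13 (adjusted p = 0.298). Gja1 (connexin 43) was at 353.4 ± 82.5 CPM in chow control, 352.7 ± 48.4 in high-fat control, 277.9 ± 55.5 in chow renin and 298.1 ± 27.0 in high-fat renin. Its differences from chow control were -0.35 ± 0.14 in chow renin (adjusted p = 0.122) and -0.25 ± 0.15 in high-fat renin (adjusted p = 0.334). Gja5 (connexin 40, of atria and conduction tissue) had means of 5.17 to 6.37 CPM and Gjc1 (connexin 45) of 19.6 to 21.4 CPM.

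Several calcium channel genes were highest in the atrial-rich libraries. Cacna1h (Cav3.2, a T-type channel) ran from 33.38 to 69.39 CPM in the 5 atrial-rich libraries and from 9.697 to 31.37 CPM in the other 16. It was the 1 member of 31 whose ranges did not overlap, with a ratio of medians of 2.35, and 0.473% of all tested genes were likewise higher without overlap and 0.0132% lower. Cacna1d (Cav1.3, an L-type channel of atria and nodes) was at 2.94 to 4.67 CPM against 0.725 to 3.36 CPM, and Cacna1g (Cav3.1, the other T-type channel) at 30.51 to 43.66 CPM against 12.52 to 43.29 CPM. For each of these 1 of the 16 other hearts overlapped: chow renin replicate 2 for Cacna1d and high-fat renin replicate 4 for Cacna1g. Ratios of medians were 2.38 for Kcne1, 1.61 for Hcn4 and 1.21 for both Kcnj5 and Gja5. Abcc9 went the other way, with a ratio of 0.749. These values describe the libraries and carry no test.

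**Figure D3:**
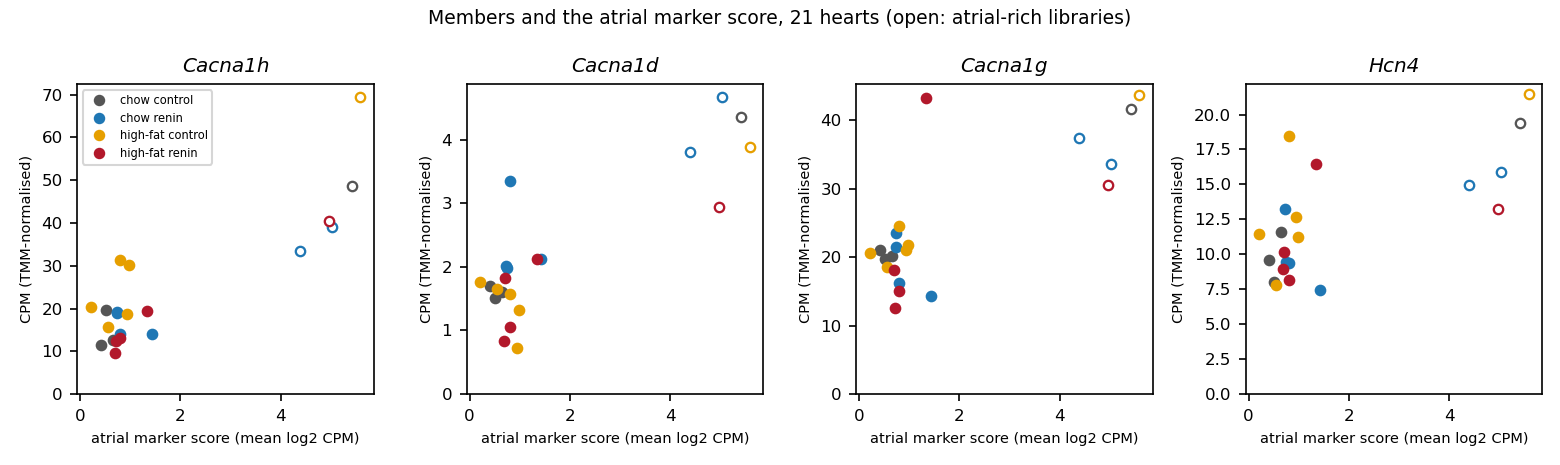
Level in CPM (vertical axes, from 0) of Cacna1h, Cacna1d, Cacna1g and Hcn4 against the atrial marker score (horizontal axes, mean log2 CPM of 8 markers) in 21 hearts, coloured by group. The 5 atrial-rich libraries (open) have scores of 4.39 to 5.59, against 0.21 to 1.43 in the other 16, and Cacna1h separates them without overlap.

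The clock score is given here beside the potassium channel transcripts. It was -3.84 to -3.53 in chow control, -3.61 to -3.31 in high-fat control, -3.27 to -2.98 in chow renin and -3.36 to -2.18 in high-fat renin. The control groups overlapped each other, as did the renin groups, and neither renin group overlapped chow control. High-fat renin replicate 1, at -2.18, had the lowest Kcnip2 (67.09 CPM) and the lowest Kcnd2 (5.69 CPM) of all 21 hearts. High-fat renin replicates 2 and 5, at -2.91 and -2.93, had Kcnh2 at 54.81 and 47.79 CPM, and replicates 3 and 4, at -3.36 and -3.26, had it at 72.83 and 90.97 CPM. Kcnd2 was likewise lower in replicates 1, 2 and 5 (5.69, 6.416 and 7.395 CPM) than in 3 and 4 (9.189 and 11.65 CPM). Kcnip2 did not keep that order: it was highest in replicate 2 (117.2 CPM), with 102.0 CPM in replicate 3, 92.22 in replicate 5 and 81.58 in replicate 4. Replicate 3 is atrial-rich. In chow renin Kcnh2 was lowest (68.69 CPM) in replicate 5, which had the lowest score of that group (-3.27). Kcnd2 and Kcnip2 were lowest there in the atrial-rich replicate 1 (9.574 and 116.2 CPM), which had the highest score (-2.98). These orders are descriptions with no test. With the score as a covariate edgeR called 0 of 31 members in each of the 6 comparisons, with 1 to 7 members at an unadjusted p under 0.05. High-fat renin against chow control then gave Kcnip2 -0.62 (adjusted p = 0.666), Kcnd2 -0.21 (adjusted p = 0.896), Kcnh2 -0.16 (adjusted p = 0.918), Kcnq1 -0.33 (adjusted p = 0.678) and Abcc8 -0.29 (adjusted p = 0.689). In that fit 0 of all 15208 genes were called in this comparison and 0 between the groups on the fatty diet. For chow renin against chow control it still called 9.82% of all genes, between the control groups 0.105%, between the renin groups 17.4% and for the interaction 12.8%. The clock score separates high-fat renin from chow control without overlap, so score and group cannot be told apart in this comparison. The scores of high-fat renin and high-fat control overlapped, at -3.36 to -2.18 and -3.61 to -3.31. The calls between these groups (Kcnd2, Kcnh2, Kcnj3 and Kcnj8) were lost in that fit as well. Without high-fat renin replicate 1, 3 members (Kcnip2, Kcnd2 and Abcc8) passed, when 4.37% of all genes did, against 8.3% with it. The count was also 3 without high-fat renin replicate 2 or 5 or chow control replicate 1, 2 or 4, with 3.69% to 5.22% of all genes called.

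**Figure D4:**
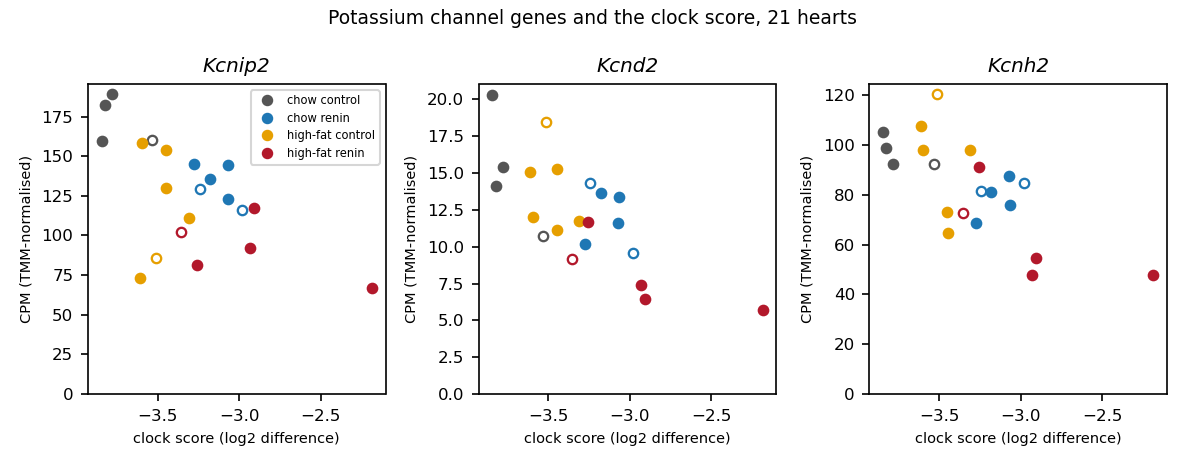
Level in CPM (vertical axes, from 0) of Kcnip2, Kcnd2 and Kcnh2 against the clock score (horizontal axes, difference of mean log2 CPM) in 21 hearts, coloured by group, with atrial-rich libraries open. Chow control has scores of -3.84 to -3.53, and high-fat renin replicate 1 at the right with -2.18 and the lowest Kcnip2 and Kcnd2 levels.

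Other genes of excitation and coupling were followed in 5 lists. In high-fat renin against chow control their counts stand beside 4.05% of all genes higher and 4.25% lower. Of 33 tested subunits of other channels, 2 were higher and 2 lower, near that background. Kcnj14 (Kir2.4, an inward rectifier) was at 0.897, 0.778, 0.727 and 0.582 CPM in chow control and 6.617, 6.339, 1.723, 2.128 and 3.907 CPM in high-fat renin, a difference of 2.46 ± 0.42 (adjusted p = 0.00137). Clic5 rose by 0.73 ± 0.21 (adjusted p = 0.0344), and Trpm4, a calcium-activated cation channel, fell by 0.39 ± 0.10 on the log2 scale (adjusted p = 0.0233). With the clock score in the fit 0 of the 33 were called in this comparison, as were 0 of all 15208 genes.

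In chow renin 11 of the 33 other subunits were higher than in chow control and 0 lower, beside a background of 10.1% higher, and the list's median was 0.49 where the members' was -0.22. The lowest adjusted p belonged to Cacnb4 (1.76 ± 0.17, adjusted p = 6.514e-08), Scn2b (1.95 ± 0.20, 7.679e-08) and Kcnab2 (1.83 ± 0.19, 1.069e-07), which encode auxiliary calcium, sodium and potassium channel subunits common in brain. Cacnb4 was at 8.32 to 12.5 CPM in chow renin and at 2.23 to 4.85 CPM in the hearts of the other groups. These are the hearts in which the neuron and glia markers were high, and with the central nervous score in the fit 0 of 33 were called, when 0.21% of all genes were called in this comparison against 13.5% without it. That score separates chow renin from every other group (3.73 to 4.54 against 1.71 to 2.79), so score and group cannot be told apart here either. Of 7 tested gap junction genes outside the member list, 3 were higher in chow renin (Gjb6, Gjc3 and Panx2, at adjusted p of 0.000585, 0.00920 and 0.0215) and 0 lower. Gjb6 and Gjc3 are known from glia.

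**Figure D5:**
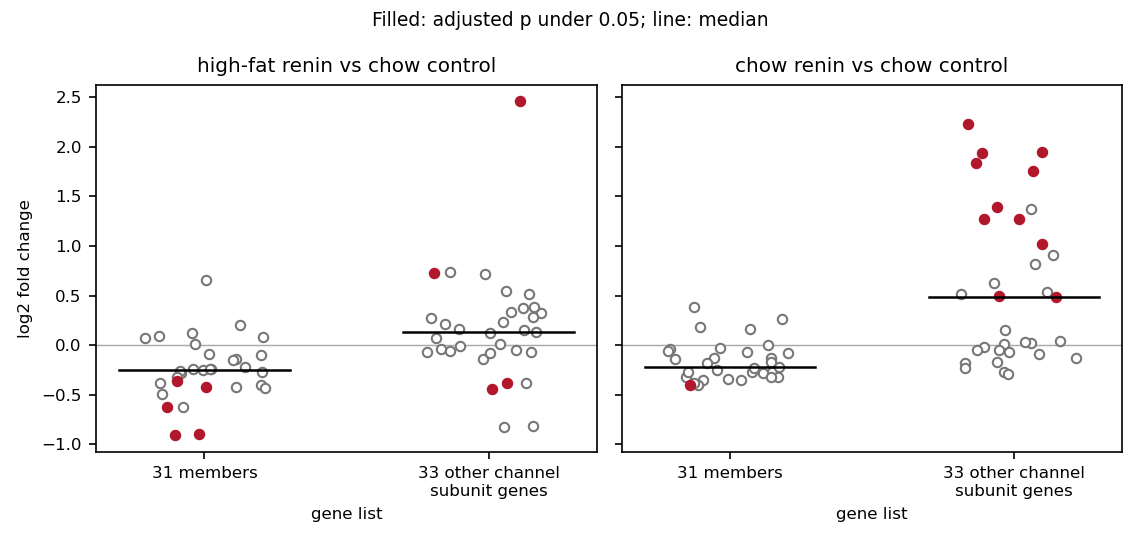
Log2 fold change (vertical axis) of the 31 members and of 33 other channel subunit genes against chow control, in high-fat renin (left) and chow renin (right). Filled points have an adjusted p under 0.05 and lines mark medians. In chow renin 11 of the 33 other subunits are higher and the member median is -0.22.

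Of the 18 tested channel partners and regulators, 1 was higher and 1 lower in high-fat renin against chow control. Fgf13, which binds sodium channels and tunes their inactivation, fell from 55.6 ± 6.9 to 38.5 ± 2.8 CPM (-0.53 ± 0.12, adjusted p = 0.00978). Akap9, a scaffold of the Kcnq1 channel, rose by 0.22 ± 0.06 (adjusted p = 0.0207). Among 19 conduction and chamber transcription factors 0 were higher and 3 lower, beside the same 4.05% and 4.25% of all genes. Hopx, a homeodomain-only cofactor of conduction tissue, went from 229.6 ± 29.9 to 138.2 ± 30.6 CPM (-0.73 ± 0.13, adjusted p = 0.00152). Irx3, which shapes the ventricular conduction system, differed by -0.46 ± 0.11 (adjusted p = 0.0138) and Tbx18 by -0.56 ± 0.17 (adjusted p = 0.0437).

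At the intercalated disc, where gap junctions sit beside adhesion junctions, 2 of 17 genes were higher and 4 lower, again beside 4.05% and 4.25% of all genes. Nrap, an actin-anchoring protein of the disc, rose from 803.0 ± 81.8 to 1233 ± 121 CPM (0.62 ± 0.13, adjusted p = 0.00449). Ctnna1 (alpha-catenin) fell by 0.33 ± 0.08 (adjusted p = 0.00994) and Lmo7 by 0.34 ± 0.09 (adjusted p = 0.0172) on the log2 scale. Of 7 other gap junction genes, Panx1 was higher by 1.01 ± 0.24 (adjusted p = 0.0127), with 3.25 to 3.81 CPM in high-fat renin against 1.11 to 3.06 CPM in chow control, and Gja3 was lower by -0.38 ± 0.11 (adjusted p = 0.0306). In high-fat control against chow control these 5 lists gave 0 calls, beside 0.0658% of all genes.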

How the data were processed

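For each heart the authors deposited a transcript table in the layout of Salmon, with estimated counts (expected counts, not normalized) and TPM, and for the series a gene table with a signal per library, a log2 fold change and adjusted p-values of the authors' own comparison. The submitters' processing notes name Salmon 1.10.2, DESeq2 1.40.2 and the build GRCm38 (mm10), without roles. Of 119215 transcripts 97.88% matched GENCODE M21; the rest held 0.862 to 0.933% of reads. Counts were summed per gene, rounded and fitted once over all 4 groups with edgeR 4.0.16 (TMM, filterByExpr, robust quasi-likelihood test) in R 4.3.3. The fit used a count test on estimated counts where whole counts had been planned. DESeq2 1.42.0, and limma 3.58.1 on log2(signal + 1), were alternatives. Levels are TMM-scaled CPM, and SE is the log2 fold change divided by the root of the F statistic. Fits were tested on simulated data. Each library carries a code of its own in the deposited headers; what the code stands for is not stated, so p-values measure the spread between these samples. The members and lists were chosen with earlier results of these data known. Named were all members, with values for those called at least once, and at most 3 called genes per other list and comparison. Further alternatives were other scalings, no filter, a replicate block, atrial, clock and central nervous scores, omission of libraries, only the groups compared, and thinning to equal depth.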

Additional observations from a re-analysis of the deposited data

Results flagged for a closer look

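Within each of the 4 groups, each member's lowest and highest heart was set against the others by Dixon's criterion, which chance alone meets in about 1 of 20 groups. Of 124 group and gene pairs 14 met it, and 7 of the 14 were hearts of replicate 3, all atrial-rich. In chow control replicate 3, Cacna1d stood apart at 4.361 CPM, Cacna1g at 41.64 CPM and, on the low side, Scn4a at 27.72 CPM. In high-fat control replicate 3, Cacna1h stood apart at 69.39 CPM, Cacna1g at 43.66 CPM, Cacna1d at 3.879 CPM and Kcne1 at 2.058 CPM. Chow renin replicate 6 was high for Kcnv2 (11.89 CPM), Kcnj11 (150.3 CPM) and Abcc9 (269.2 CPM). Single hearts stood apart for Abcc8, low at 25.87 CPM in high-fat control replicate 6, and for Gja1, high at 475.8 CPM in chow control replicate 4. In high-fat renin, Kcnd3 was low at 8.808 CPM in replicate 1 and Cacna2d1 high at 115.7 CPM in replicate 4.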

How the results depend on the processing

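The 12 calls of members were recomputed under 33 alternatives. No direction reversed, 333 of these values kept the call and 63 lost it. Counts of members called moved by over 1.5 times as follows, and the cause was not tested. The share of all genes called under a setting is given in brackets. With the clock score all 6 counts were 0 (0%, 9.82%, 0.105%, 0%, 17.4% and 12.8% in the order of the report). With the central nervous score, the counts for chow renin were 0 against chow control (0.21%, from 13.5%) and 0 against high-fat renin (0.263%, from 22.6%). The atrial score gave 2 for chow renin against chow control (14%), 4 between the renin groups (23.6%) and 1, Kcne1, for the interaction (11.5%). Without the atrial-rich libraries chow renin against chow control gave 0 (10.3%) and the interaction 1, Kcne1 (7.18%). No filter gave 2 between the groups on the fatty diet (5.56%) and 1 between the renin groups (12.6%). With only the groups compared, chow renin against chow control gave 5 (16.8%), the groups on the fatty diet 2 (3.81%) and the renin groups 4 (24.8%). Leaving out 1 heart gave 3 to 8 members for high-fat renin against chow control, with 3 without chow control 1, 2 or 4 or high-fat renin 1, 2 or 5, and 8 without high-fat control 6. It gave 1 to 5 for chow renin against chow control, with 5 without chow renin 6 and 4 without high-fat control 6. Between the groups on the fatty diet it gave 2 to 7, with 2 without high-fat control 5 or high-fat renin 1, 2 or 5, and 7 without high-fat control 6 or high-fat renin 3. Between the renin groups it gave 0 to 3, with 0 without chow renin 4 or high-fat renin 1 or 5. For the interaction it gave 0 to 1. Over these fits the share of all genes was 3.69% to 11.4% for high-fat renin against chow control, 9.83% to 15.5% for chow renin against chow control, 4.58% to 15.8% on the fatty diet, 16.3% to 24.9% between the renin groups and 7.98% to 12.9% for the interaction. High-fat control against chow control gave 0 throughout.

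Replicate numbers did not pair hearts throughout: of 28 same-numbered pairs 11 correlated above 0.1. All 6 pairs of replicate 3, whose libraries are atrial-rich, did so (0.218 to 0.421), and the other numbers ran from -0.228 to 0.152. With the replicate block the counts were 5, 1, 0, 4, 3 and 0 in the order in which the report gives the comparisons, and Kcnq1 in high-fat renin against chow control had an adjusted p of 0.0505. RLE and upper-quartile scaling and thinning moved no count by over 1.5 times. With 4 to 6 hearts a group and few reads for Kcna4, Kcne1 and Cacna1d, small differences in these genes may have been missed. The smallest difference that could be detected in them was not measured.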
